A study of Mus musculus with 6 samples.

Results

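Gxylt2 and 9 genes of the Notch pathway were followed across 3 related lines of mouse hepatocellular carcinoma cells, on Affymetrix 3′ expression arrays. The receptors Notch1, Notch2 and Notch3, the ligands Jag1 and Jag2, the glycosyltransferases Gxylt2, Gxylt1 and Lfng, and the target genes Hes1 and Hey1 make up the group. They are 10 of the 18193 genes measured, and 17 of the 34945 probe sets whose annotation names 1 gene alone represent them. Gxylt2 was picked because its signal was higher in both selected lines than in the parent line, so its differences from the parent are given as a description with no test. The other 9 genes were listed by name. M1 and I1 are subpopulations of the parent line that had been selected for migration, and each is called a subclone line by the submitters. BL185 is that parent line. An unselected subclone of BL185 is not analysed here, so selection and subcloning cannot be told apart. Each line was kept in DMEM with serum and was hybridised to 2 arrays. The labels leave unsaid if replicate arrays had cultures of their own, and the p-values below therefore reflect array-to-array spread that may be purely technical.

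Notch receptors are single-pass membrane proteins whose outer part is a row of EGF-like repeats. A ligand of the Jagged or Delta-like family on a neighbouring cell pulls on the receptor, ADAM proteases and then gamma-secretase cut it, and the freed inner part enters the nucleus, binds the DNA-binding protein RBPJ and switches on genes such as Hes1 and Hey1, which encode repressors. The EGF-like repeats carry sugars that tune this signal: POGLUT1 adds glucose, GXYLT1 and GXYLT2 add a xylose to that glucose, XXYLT1 adds a further xylose, and Fringe enzymes such as LFNG extend a fucose placed by POFUT1. In liver, Jag1 and Notch2 are best known for the formation of bile ducts, and Notch signalling has also been studied in liver tumours.

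The promoters of Gxylt2, Jag1 and Lfng are shown because these were the members whose arrays in M1 and in I1 all lay apart from those of BL185 with a mean difference of at least 1 log2 unit in each line. Each runs from 250 bases before to 50 bases after the gene's start, 5′ to 3′ on the gene's strand, from RefSeq on GRCm38.p6. Capitals mark the core of the RBPJ binding motif, TGGGAA, on either strand (TTCCCA on the other). The windows are chr6:100704484-100704783 (plus strand) for Gxylt2, chr5:140607091-140607390 (plus strand) for Lfng and chr2:137116471-137116770 (minus strand) for Jag1.
Gxylt2: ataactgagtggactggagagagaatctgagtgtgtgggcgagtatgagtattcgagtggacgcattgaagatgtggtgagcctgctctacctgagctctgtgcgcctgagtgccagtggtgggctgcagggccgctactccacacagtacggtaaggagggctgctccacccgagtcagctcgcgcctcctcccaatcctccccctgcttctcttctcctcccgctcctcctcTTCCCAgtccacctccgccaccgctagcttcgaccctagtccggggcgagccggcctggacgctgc
Lfng: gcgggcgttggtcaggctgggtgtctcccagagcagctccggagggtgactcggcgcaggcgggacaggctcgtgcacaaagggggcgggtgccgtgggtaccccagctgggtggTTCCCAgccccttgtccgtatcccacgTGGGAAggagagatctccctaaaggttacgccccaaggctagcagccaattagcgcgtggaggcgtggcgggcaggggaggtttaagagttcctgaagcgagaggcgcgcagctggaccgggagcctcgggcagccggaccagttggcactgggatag
Jag1: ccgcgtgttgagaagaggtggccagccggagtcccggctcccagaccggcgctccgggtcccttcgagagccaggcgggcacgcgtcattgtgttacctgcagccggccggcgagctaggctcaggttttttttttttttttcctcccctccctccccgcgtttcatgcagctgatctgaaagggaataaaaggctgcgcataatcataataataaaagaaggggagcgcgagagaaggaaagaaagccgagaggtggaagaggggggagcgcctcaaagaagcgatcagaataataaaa
The Gxylt2 window held 1 match, whose first base lies 16 bases before the start. The Lfng window held 2, beginning 135 and 108 bases before the start, and the Jag1 window held 0. Promoters were found for 8 of the 10 genes, not for Hes1 and Hey1, and 2 of these 8 (25%) held the motif, against 25.6% of all 32851 promoters in the table. A match describes letters only, and no binding was measured.

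The arrays were unequal. The between-replicate SD over all genes was 0.651 log2 units in M1, 0.158 in I1 and 0.102 in BL185, and M1 replicate 1 had the narrowest spread of signals, an SD of 1.62 over probe sets against 1.83 to 1.97 on the other 5 arrays. Among the 10 members, M1 replicate 1 was the lowest of the 6 arrays for 5 and the highest for 3, compared with 41.3% and 35.4% of all genes. The 3′ control for 18S ribosomal RNA read 12.50 and 10.68 in M1, 11.27 and 11.51 in I1, and 10.11 and 10.14 in BL185. For Actb, whose 3′ excess over the 5′ probe set grows as RNA degrades, that excess was 1.43 and 1.24 in M1, 1.47 and 1.43 in I1, and 1.08 and 0.88 in BL185. Both measures were thus higher on every M1 and I1 array than on either BL185 array, and their part in the differences given here was not tested. The array medians lay between 7.87 and 8.11 log2 units, and signal near or below that may be close to background. Of 8 hepatocyte markers 4 had a mean above 9 in each line. Krt8, Krt18 and Hnf4a were among them in every line, with Ttr in M1 and I1 and the fibrinogen gene Fgb in BL185. Fgb averaged 7.70 in M1, 7.55 in I1 and 9.48 in BL185 (adjusted p = 0.0469 for M1 and 0.0501 for I1), and albumin (Alb) averaged 8.04 in M1, 8.08 in I1 and 7.56 in BL185. Endothelial markers above 9 numbered 0 of 6 in each line, leukocyte markers 1 of 5 (Cd68 in BL185, Cd3e in M1 and I1), and stellate cell and fibroblast markers 1 of 6. The defining leukocyte gene Ptprc averaged 6.72 in M1, 6.66 in I1 and 6.25 in BL185. The lysosomal macrophage marker Cd68 averaged 7.44 in M1, 7.60 in I1 and 10.65 in BL185, changes of −3.21 and −3.05 (adjusted p = 0.0148 and 0.0262). Cd68 alone of the measured leukocyte markers had a lower mean in M1 and I1 than in BL185. Itgam averaged 7.06 in M1, 6.93 in I1 and 6.70 in BL185, and Adgre1 8.15, 8.21 and 8.11. The log2 of the summed leukocyte marker signal, which includes Cd68, was 10.15 to 10.39 in M1, 10.29 to 10.37 in I1 and 11.25 to 11.35 in BL185. That of the stellate and fibroblast list was 10.96 to 11.36, 11.13 to 11.21 and 10.76 to 10.84 in the same 3 lines, and its part in the results was not tested. In such bulk RNA, fewer expressing cells and less RNA per cell cannot be told apart.

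Gxylt2 stood far above its parental level in both selected lines. It encodes a Golgi xylosyltransferase and had a log2 signal of 11.52 and 12.38 in M1, 11.55 and 11.75 in I1, and 8.35 and 8.14 in BL185. All 4 arrays of the selected lines lay more than 3 log2 units above both parental arrays. The mean difference was 3.71 log2 units in M1 (13.1-fold) and 3.40 in I1 (10.6-fold), ranking 4 in M1 and 5 in I1 from the highest change among 18193 genes. Because the BL185 mean of 8.25 is close to the array medians, these sizes are not exact. The values rest on a lone probe set. Between the selected lines the I1 values lay within the M1 range, and I1 minus M1 was −0.31 ± 0.32 (SE; limma, adjusted p = 0.9999, 95% interval −1.12 to 0.51). Without M1 replicate 1 that difference was −0.74, and without M1 replicate 2 it was 0.12, so its sign depended on the M1 array kept.

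**Figure D1:**
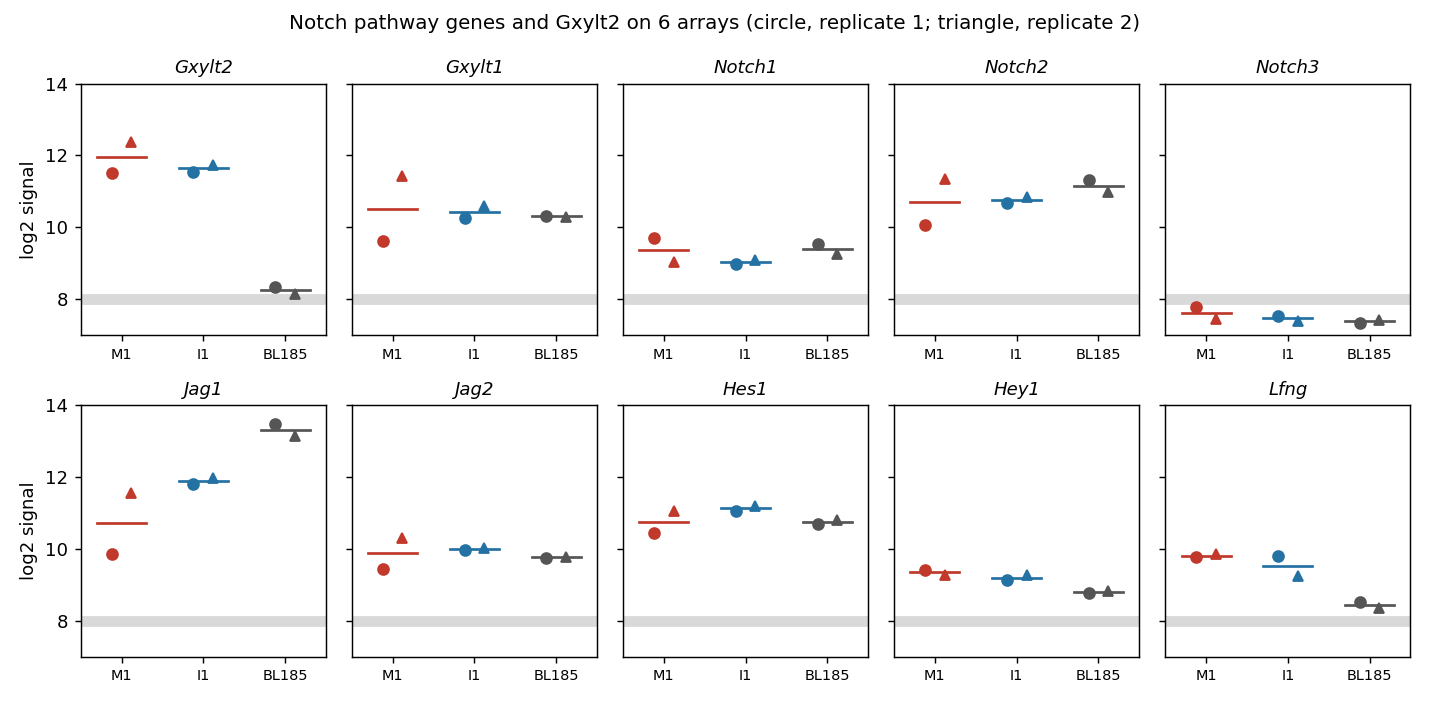
Log2 signal of the 10 genes on each array, by line (M1 red, I1 blue, BL185 grey); circles are replicate 1, triangles replicate 2, bars the mean of 2 arrays, and the grey band the range of the array medians. Gxylt2, Lfng and Hey1 lie above BL185 and Jag1 below it on all 4 arrays of the selected lines. The M1 arrays are far apart for Gxylt1, Notch2 and Jag1.

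Of the 5 genes whose 6-array profile was most like that of Gxylt2, Mki67, a marker of cycling cells, came first. Likeness was the root mean square difference between profiles, each taken as differences from the gene's own mean, over 6 arrays and 9482 genes with a line mean of at least 9. It was 0.22 log2 units for Mki67, 0.24 for Pclaf, a PCNA-binding replication factor, and 0.25 for Cdca3, which promotes entry into mitosis. It was 0.33 for Shcbp1, an adaptor-binding protein, and 0.36 for the thymidine kinase Tk1. The mean difference from BL185 was 3.37 in M1 and 2.90 in I1 for Mki67, and 2.92 and 2.69 for Tk1, against 3.71 and 3.40 for Gxylt2. The points share 3 lines and 6 arrays, and the ranking is a description only. Of the other probe sets of Pclaf, 1 had changes of 2.18 and 1.74 in M1 and I1, and the dimmest, which averaged 6.57, had 0.27 and 0.28. Those of Cdca3, which averaged 6.56 and 8.13, had changes of 0.21 to 0.40.

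**Figure D2:**
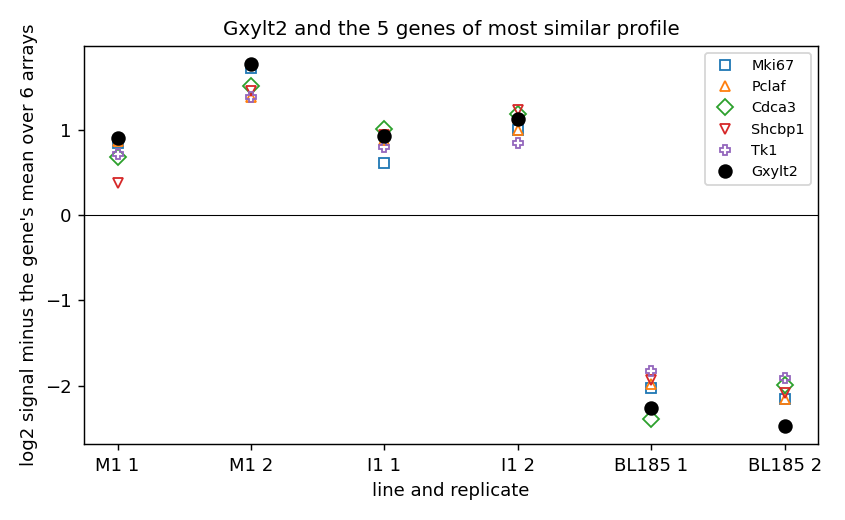
Log2 signal minus the gene's own mean over 6 arrays (vertical axis) on each array (horizontal axis) for Gxylt2 (black) and the 5 genes of nearest profile. The 6 genes are above their mean on the M1 and I1 arrays and about 2 log2 units below it on the BL185 arrays.

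Gxylt1, the paralog that can attach the same xylose, did not pass the test in either line. Its log2 signal was 9.61 and 11.42 in M1, 10.26 and 10.60 in I1, and 10.33 and 10.29 in BL185. The M1 arrays lay on either side of the parental ones, and the I1 arrays overlapped them. The change was 0.21 ± 0.59 in M1 (SE; adjusted p = 0.833, 95% interval −1.28 to 1.69) and 0.12 ± 0.59 in I1 (adjusted p = 0.941, −1.37 to 1.61), intervals that leave room for changes of more than 2-fold in either direction. Its sign in M1 depended on the array: 1.11 without M1 replicate 1 and −0.70 without M1 replicate 2.

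Lfng, which lengthens O-linked fucose on Notch and so shifts the receptor's preference among ligands, was also higher in both selected lines. It read 9.78 and 9.86 in M1, 9.81 and 9.24 in I1, and 8.54 and 8.36 in BL185, so that neither selected line overlapped the parent. The change was 1.37 ± 0.24 in M1 (2.58-fold; adjusted p = 0.0899, 95% interval 0.75 to 1.98) and 1.08 ± 0.24 in I1 (2.11-fold; adjusted p = 0.178, 0.46 to 1.69), and neither passed the threshold of 0.05. Without M1 replicate 1 both did, with changes of 1.40 and 1.08 and adjusted p of 8.30e-05 and 8.45e-05. The second Lfng probe set was dimmer, at 8.40 and 7.42 in M1, 7.58 and 7.86 in I1, and 7.18 and 7.21 in BL185. Its arrays were apart from BL185 in the same direction, by 0.72 in M1 and 0.53 in I1, although the parental signal there was below the array medians.

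The ligand Jag1 differed most from the parent after Gxylt2, and in the other direction. Its brightest probe set read 9.87 and 11.57 in M1, 11.81 and 11.99 in I1, and 13.49 and 13.16 in BL185. All 4 arrays of the selected lines were below both parental arrays, with the lowest value on M1 replicate 1. The change was −2.61 ± 0.56 in M1 (SE; adjusted p = 0.129, 95% interval −4.02 to −1.19) and −1.43 ± 0.56 in I1 (adjusted p = 0.427, −2.84 to −0.01), and neither passed. Without M1 replicate 1 the changes were −1.75 and −1.43, with adjusted p of 1.77e-06 and 1.17e-06. A second Jag1 probe set had much tighter replicates, at 7.26 and 7.53 in M1, 7.56 and 7.53 in I1, and 10.41 and 10.54 in BL185. When all 34945 probe sets were tested, Jag1 passed on it in both lines: the change was −3.08 log2 units in M1 (adjusted p = 0.0141) and −2.93 in I1 (adjusted p = 0.0279), where 0.532% of probe sets were called lower and 0.163% higher in M1, and 0.358% and 0.134% in I1. The levels left in M1 and I1 were below the array medians, so the size is not exact. The third probe set disagreed in size: it read 9.18 and 8.26 in M1, 8.53 and 8.54 in I1, and 9.06 and 8.95 in BL185, a change of −0.28 in M1 (adjusted p = 0.614 over all probe sets) and −0.47 in I1 (0.611).

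**Figure D3:**
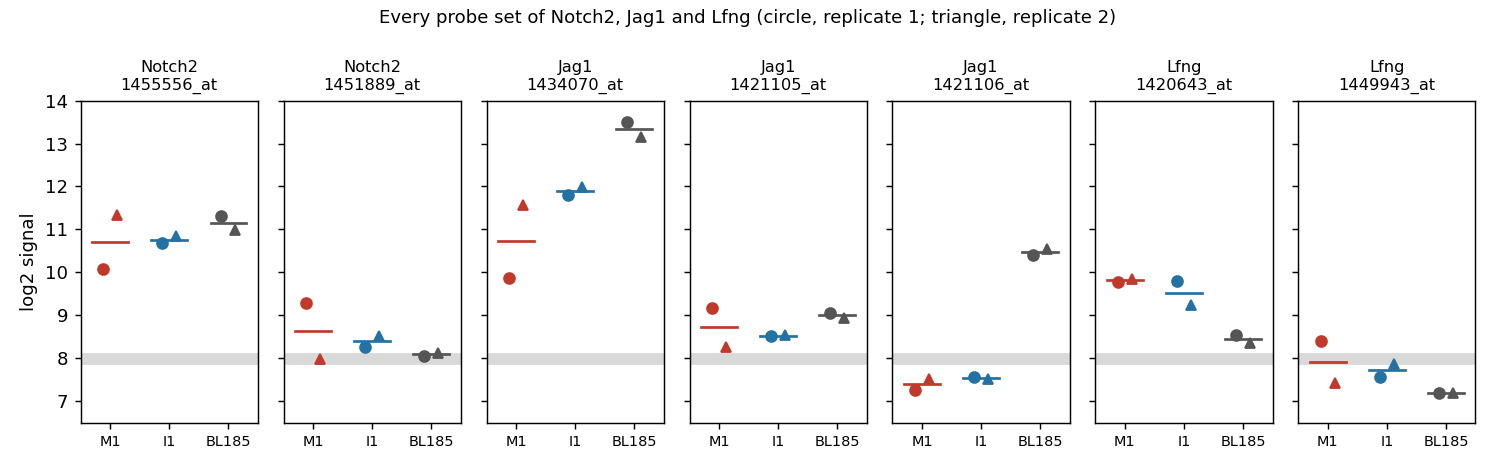
Log2 signal (vertical axis) on every probe set of Notch2, Jag1 and Lfng by line (M1 red, I1 blue, BL185 grey; circles replicate 1, triangles replicate 2, bars means, grey band the range of array medians). On 1 Jag1 probe set both selected lines lie below the grey band, and BL185 stands near 10.5.

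Jag2, the other Jagged ligand, did not pass the test. It read 9.46 and 10.31 in M1, 9.99 and 10.04 in I1, and 9.76 and 9.78 in BL185, so that the M1 arrays straddled the parental ones and the I1 arrays were just above them. The change was 0.11 ± 0.31 in M1 (adjusted p = 0.822, 95% interval −0.66 to 0.89) and 0.25 ± 0.31 in I1 (adjusted p = 0.767, −0.53 to 1.02). Its second probe set had changes of 0.37 in M1 and 0.22 in I1, with arrays apart from the parent in both lines.

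For the receptors no difference from the parent passed the test in the fit of all arrays, whose pooled spread is set largely by M1. With only the I1 and BL185 arrays in the fit, the I1 changes of Notch1 (adjusted p = 0.028) and Notch2 (adjusted p = 0.027) passed. That of Notch3 did not (adjusted p = 0.614). In the same fit 22.5% of all genes were called higher in I1 and 24.1% lower. The values below are from the fit of all arrays. Notch1, on its brighter probe set, read 9.71 and 9.03 in M1, 8.97 and 9.10 in I1, and 9.55 and 9.26 in BL185. M1 overlapped the parent (change −0.03 ± 0.28, adjusted p = 0.951, 95% interval −0.74 to 0.68, with the sign turned after cyclic loess and quantile normalization), and I1 was just below it (−0.37 ± 0.28, adjusted p = 0.683, −1.08 to 0.34). The dimmer Notch1 probe set had changes of −0.21 in M1 and −0.13 in I1. Notch2 read 10.08 and 11.35 in M1, 10.68 and 10.85 in I1, and 11.31 and 10.99 in BL185. The M1 arrays again lay on either side of the parental values (−0.43 ± 0.44, adjusted p = 0.557, −1.54 to 0.67), and the I1 arrays were lower than them (−0.38 ± 0.44, adjusted p = 0.755, −1.49 to 0.72). The second Notch2 probe set differed in sign, with changes of 0.54 in M1 and 0.31 in I1, and the sign on the first in M1 also turned after cyclic loess and quantile normalization. The second set had a BL185 mean of 8.09, which is within the range of the array medians. Notch3 was between 7.35 and 7.77 on all arrays, below the medians, with changes of 0.22 ± 0.19 in M1 and 0.08 ± 0.19 in I1 (adjusted p = 0.510 and 0.879), the signs of which turned after cyclic loess. Both its probe sets lay below the array medians in every line.

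Neither target gene passed the test against the parent in the fit of all arrays. With only the I1 and BL185 arrays in the fit, the I1 changes of Hes1 (adjusted p = 0.0174) and Hey1 (adjusted p = 0.0099) passed. In that fit 22.5% of all genes were called higher in I1 and 24.1% lower. Hes1 read 10.44 and 11.06 in M1, 11.06 and 11.21 in I1, and 10.70 and 10.81 in BL185. The M1 arrays enclosed the parental ones (−0.01 ± 0.26, adjusted p = 0.990, 95% interval −0.65 to 0.64, but 0.49 after cyclic loess), and both I1 arrays were above them (0.37 ± 0.26, adjusted p = 0.662, −0.27 to 1.02). Hey1 read 9.42 and 9.29 in M1, 9.13 and 9.27 in I1, and 8.77 and 8.82 in BL185. Its arrays did not overlap those of BL185 in either line, with a change of 0.56 ± 0.17 in M1 (1.47-fold; adjusted p = 0.237, 0.13 to 0.99) and 0.41 ± 0.17 in I1 (1.33-fold; adjusted p = 0.457, −0.02 to 0.84). Without M1 replicate 1 the Hey1 changes passed, at 0.49 (adjusted p = 0.0183) and 0.41 (0.0099).

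**Figure D4:**
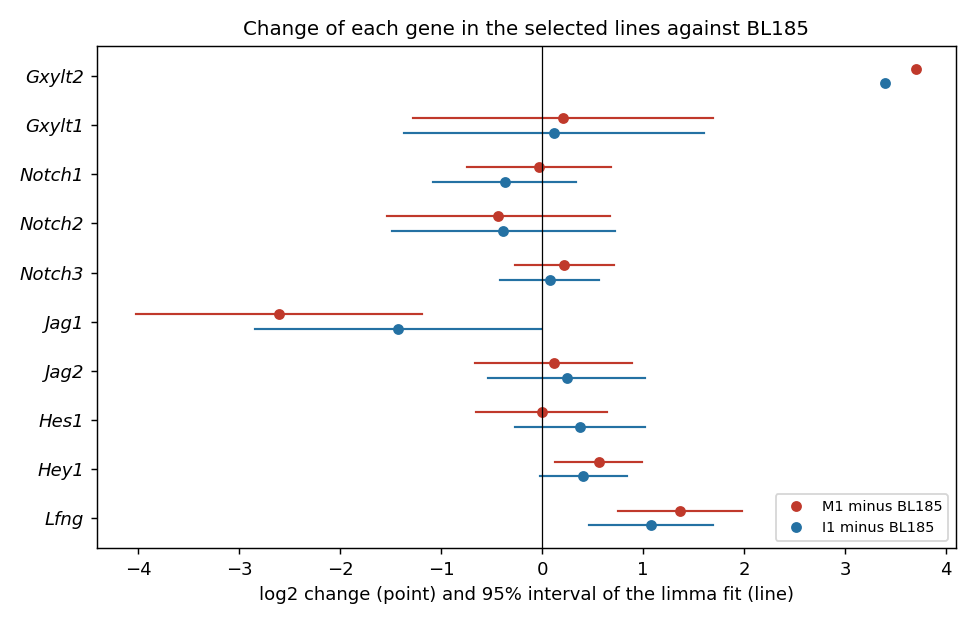
Log2 change from BL185 (horizontal axis) of the 10 genes in M1 (red) and I1 (blue); points are differences of means of 2 arrays and lines 95% intervals of the limma fit, left out for Gxylt2, which was picked on these values. The Lfng intervals lie above 0 and those of Jag1 below it, before adjustment over all genes.

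Over the 9 members other than Gxylt2, limma called 0 in M1 and 0 in I1 at an adjusted p of 0.05, where 0.275% of all genes were called higher and 0.605% lower in M1, and 0.192% and 0.319% in I1. At an unadjusted p under 0.05 there were 3 in M1 (Jag1, Hey1 and Lfng) and 2 in I1 (Jag1 and Lfng), against 15.4% and 11.6% of all genes. Without M1 replicate 1 the counts were 5 and 6. In M1 these were Gxylt1, Jag2, Hey1 and Lfng higher and Jag1 lower, where 11.7% of genes were called higher and 12.3% lower. In I1 they were Hes1, Hey1 and Lfng higher and Notch1, Notch2 and Jag1 lower, where 22.5% and 24.1% of genes were called. Without M1 replicate 2 instead, 6 of the 9 were called in M1, with Notch3, Hey1 and Lfng higher and Gxylt1, Notch2 and Jag1 lower, where 32.4% of genes were called higher and 38.4% lower. Among these 9, the arrays lay wholly above BL185 for 3 in M1 and 4 in I1, and wholly below for 1 and 3. Over all genes these shares were 26.2% and 42.6% above and 25.7% and 33.5% below. With a difference of at least 1 log2 unit in addition, 1 of the 9, Lfng, was above and 1, Jag1, below in both lines, where the shares of all genes in M1 were 2.38% above and 10.4% below, and in I1 2.45% and 5.82%. The median change of the 9 was 0.11 in M1 and 0.12 in I1, and that of all genes 0.07 and 0.06. The M1 and I1 comparisons share the BL185 arrays.

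Between the selected lines, 0 of 10 members were called in I1 against M1 by limma, as were 0% of all genes, and 0 members had an unadjusted p under 0.05, against 2.25% of all genes. The I1 arrays were wholly above those of M1 for Jag1, with a difference of 1.18 ± 0.56 (95% interval −0.24 to 2.60), and just below them for Hey1 (−0.15 ± 0.17). The Jag1 difference is that of its brightest probe set. On its other probe sets I1 minus M1 was 0.15 and −0.19, with overlapping arrays. Over all genes 8.13% were wholly above and 7.96% wholly below, and 1.25% and 0.0989% with a difference of at least 1 log2 unit in addition, which Jag1 had. Without M1 replicate 1 the Jag1 difference was 0.33 (adjusted p = 0.167), and 3 members, Gxylt1, Gxylt2 and Notch2, were called lower in I1, where 7.2% of genes were called higher and 13.4% lower. Without M1 replicate 2 the calls were other ones, Gxylt1, Notch2, Jag1, Jag2 and Hes1 higher and Notch1 lower in I1, where 36.1% of genes were higher and 20.9% lower, so that Gxylt1 and Notch2 took opposite directions depending on the M1 array kept.

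Of 81 other genes of the pathway and of the sugar chain it carries, in 8 lists, 74 were measured. Of these, limma called 0 higher and 1 lower in M1 and 0 in I1. Over all genes 0.275% were called higher and 0.605% lower in M1, and 0.192% and 0.319% in I1. At an unadjusted p under 0.05 there were 18 of 74 in M1, 11 in I1 and 2 in I1 against M1, where 0 were called, beside 15.4%, 11.6% and 2.25% of all genes. With only the I1 and BL185 arrays in the fit, 37 of the 74 were called in I1. In that fit 22.5% of all genes were called higher in I1 and 24.1% lower. The median change of the 74 was −0.14 in M1 and −0.03 in I1. Those called without M1 replicate 1 numbered 8 higher and 14 lower in M1 and 14 higher and 23 lower in I1, where 11.7% and 12.3% of all genes were called in M1 and 22.5% and 24.1% in I1. On M1 replicate 1 the signal was the lowest of the 6 arrays for 52.7% of these genes and the highest for 20.3%, beside 41.3% and 35.4% of all genes.

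Sox9, a transcription factor of bile duct and progenitor cells that Notch can induce, was the gene called lower in M1. It read 9.13 and 9.65 in M1, 10.09 and 10.12 in I1, and 11.42 and 11.48 in BL185, and the lines did not overlap. It fell by 2.06 log2 units in M1 (SE 0.23, adjusted p = 0.0343), and its change in I1 was −1.35 ± 0.23 (adjusted p = 0.0996). The call in M1 was lost with a trended prior, with the replicate number as a block and with only the M1 and BL185 arrays in the fit. It was also lost when any single BL185 or I1 array was left out. A second Sox9 probe set had changes of −1.97 and −1.74, and the third, near 7.5, changes of −0.11 and −0.06. The growth regulator Myc, which Notch can also induce, read 10.12 and 11.56 in M1, 11.18 and 11.78 in I1, and 13.17 and 13.44 in BL185. Its changes of −2.47 ± 0.51 in M1 and −1.83 ± 0.51 in I1 had adjusted p of 0.121 and 0.251. Of 10 further targets, Sox9 and Myc included, 2 lay wholly above and 3 wholly below BL185 in M1, and 5 and 3 in I1. Over all genes 26.2% lay wholly above and 25.7% wholly below in M1, and 42.6% and 33.5% in I1.

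In the nuclear complex, Rbpj, the DNA-binding partner of the cleaved receptor, was lower in the selected lines on all arrays. It read 9.30 and 11.02 in M1, 10.85 and 11.08 in I1, and 12.11 and 12.10 in BL185. The change was −1.94 ± 0.56 in M1 (adjusted p = 0.220) and −1.14 ± 0.56 in I1 (adjusted p = 0.545). Neither change of Rbpj passed in the fit of all arrays. Its other 2 probe sets had changes of −1.26 and −1.70 in M1 and −1.04 and −1.70 in I1. Kdm5a, a histone demethylase that acts with RBPJ to silence targets, read 7.13 and 9.56 in M1, 8.39 and 8.34 in I1, and 10.29 and 10.24 in BL185 (−1.92 and −1.90, each ± 0.77, adjusted p = 0.331 and 0.445). Its 5 other probe sets, which averaged 6.48 to 7.62, had changes of −0.44 to 0.17. Of 13 measured genes of this list 0 were called, beside 0.879% of all genes in M1 and 0.511% in I1. In M1, 1 lay wholly above and 6 wholly below BL185, with 3 and 7 in I1. Over all genes the shares were 26.2% and 25.7% in M1 and 42.6% and 33.5% in I1.

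Among ubiquitin and endocytosis genes, a pair of ligand-activating E3 ligases differed from BL185 in opposite directions. Neurl1b, of the Neuralized family, read 9.60 and 10.58 in M1, 10.19 and 10.06 in I1, and 8.50 and 8.60 in BL185, a change of 1.54 ± 0.34 in M1 and 1.58 ± 0.34 in I1 (adjusted p = 0.141 and 0.165). Mib2, of the Mind bomb family, read 8.71 and 9.56 in M1, 9.58 and 9.59 in I1, and 10.87 and 10.69 in BL185, a change of −1.65 ± 0.31 in M1 and −1.20 ± 0.31 in I1 (adjusted p = 0.0987 and 0.224). Neither gene overlapped BL185 in either line, and neither passed the test in the fit of all arrays. Of the 16 genes of this list 0 were called, beside 0.879% of all genes in M1 and 0.511% in I1.

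None of the further enzymes of the Notch sugars passed the test in the fit of all arrays. Poglut1, which adds the glucose that GXYLT enzymes extend, read 9.12 and 10.24 in M1, 10.54 and 10.76 in I1, and 11.15 and 11.19 in BL185. The change was −1.49 ± 0.38 in M1 (adjusted p = 0.184) and −0.52 ± 0.38 in I1 (adjusted p = 0.678). Pofut1, the O-fucosyltransferase whose product LFNG extends, read 7.63 and 9.58 in M1, 9.14 and 9.32 in I1, and 10.26 and 10.11 in BL185, with changes of −1.58 ± 0.62 and −0.96 ± 0.62 (adjusted p = 0.324 and 0.648). Its 2 dimmer probe sets had changes between −0.06 and 0.32. Of 11 genes of this list 0 were called, beside 0.879% of all genes in M1 and 0.511% in I1. In M1, 2 lay wholly above and 4 wholly below BL185, with 4 and 5 in I1. Over all genes the shares were 26.2% and 25.7% in M1 and 42.6% and 33.5% in I1. For the xylose supply, the UDP-xylose transporter Slc35b4 read 8.70 and 10.39 in M1, 9.55 and 9.50 in I1, and 10.23 and 10.25 in BL185, with changes of −0.69 and −0.71 ± 0.54 (adjusted p = 0.485 and 0.684). Rxylt1, which adds xylose to ribitol on dystroglycan, had changes of −1.50 ± 0.54 in M1 and −0.91 ± 0.54 in I1 (adjusted p = 0.294 and 0.621). Of the 6 measured genes of that list 0 were called, beside the same 0.879% and 0.511% of all genes.

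**Figure D5:**
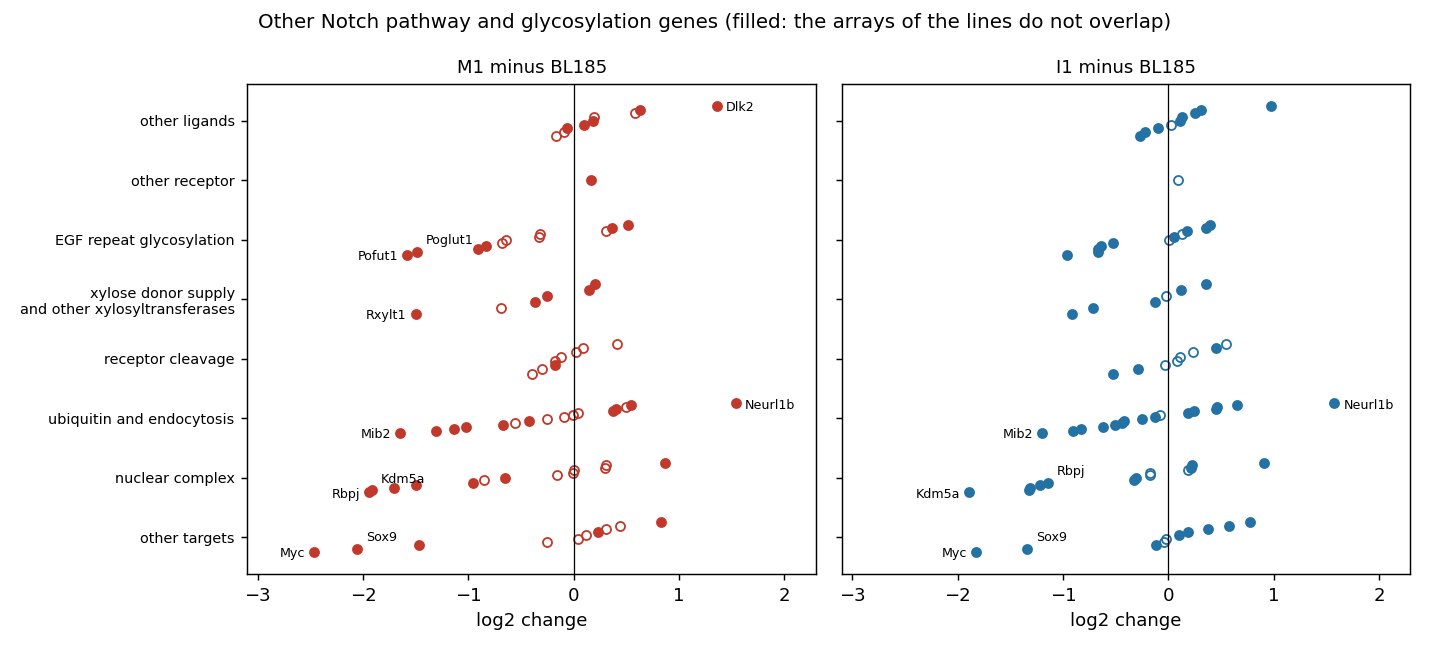
Log2 change from BL185 (horizontal axis) of 74 further genes by list (vertical axis), in M1 (left, red) and I1 (right, blue); each point is 1 gene, filled where the 2 arrays of the line do not overlap those of BL185. Neurl1b lies furthest to the right, and Myc, Sox9, Rbpj and Kdm5a are among the lowest.

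The remaining ligands, the receptor Notch4 and the cleavage enzymes had 0 of 9, 0 of 1 and 0 of 8 measured genes called in each line. Over all genes 0.879% were called in M1 and 0.511% in I1. Dlk2, a ligand-like membrane protein that can dampen Notch, read 11.10 and 9.87 in M1, 9.92 and 10.29 in I1, and 9.19 and 9.06 in BL185, above the parent on all 4 arrays (1.36 ± 0.43 and 0.97 ± 0.43, adjusted p = 0.249 and 0.487). Its second probe set had changes of 1.21 and 0.77. Its relative Dlk1 had changes of 0.63 and 0.25 from a BL185 mean of 7.91, and Notch4 of 0.17 and 0.09 from 7.83, both within or below the range of the array medians. The gamma-secretase subunit Psen2 had a change of −0.18 ± 0.18 in M1 and −0.53 ± 0.18 in I1 (adjusted p = 0.543 and 0.341), with the dimmer probe set at 0.24 and 0.10. Adam10, the protease that makes the first ligand-induced cut, had changes of −0.12 ± 0.35 and 0.46 ± 0.35 (adjusted p = 0.833 and 0.683). Of its 3 dimmer probe sets, 1 had changes of −1.71 and −1.43, and the others lay between −0.49 and 0.20.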

How the data were processed

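M1, I1 and BL185 each had 2 Affymetrix arrays. The log2 values deposited by the authors, 1 for every probe set, were made with RMA and affy per the submitters' processing notes. Tool versions and settings: not given in the sources used here. The log2 scale was read from the range, 5.80 to 15.4. Of 45101 probe sets, 34945 named 1 gene, 932 named several, and 64 were controls. For each of 18193 genes the brightest probe set on average stood in. The unused sample columns numbered 0.

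With limma 3.58.1 (R 4.3.3), 1 model of the 3 line means used the 6 arrays (3 residual and 2.27 prior degrees of freedom) with eBayes. Its code was run on simulated arrays with normal noise, to check the estimated size of known changes. The simulation did not model the narrower signal of M1 replicate 1. p-values were adjusted by Benjamini-Hochberg over all genes in each contrast (threshold 0.05). Errors with changes are SEs of this fit, whose pooled spread is set largely by M1. Without an M1 array, the lone array is assumed to vary like the other lines. Alternatives were a minimum mean of 8, averaging over probe sets within a gene, testing every probe set, cyclic loess, quantile normalization, eBayes with trend, only the arrays compared, each array left out, and a block for the replicate number. The number of arrays limits the precision.

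Members and lists were chosen with earlier results of these data known. Named were all members, in each other list the called genes or else the 2 of largest change with arrays apart from BL185 (fewer where fewer met this), and the 5 profiles nearest to Gxylt2. Lists by role were 8, and cell type marker lists 5. Listed genes that share all their probe sets, or have none, were not analysed here. Promoters came from RefSeq on GRCm38.p6, and protein sequences were not used here. Python 3.11.15 with numpy 2.4.6, pandas 2.3.3 and matplotlib 3.10.9 was used for counts and figures.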

Additional observations from a re-analysis of the deposited data

How the results depend on the processing

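For the 9 members other than Gxylt2, the 0 calls in M1 against BL185 became 1 with probe sets averaged within a gene, 1 with every probe set, 2 after cyclic loess and 1 after quantile normalization, and 0 to 6 when an array was left out. The 0 calls in I1 became 1 with the mean of probe sets, 1 with every probe set and 6 with only the arrays compared, and 0 to 6 when an array was left out. The 0 calls of the 10 members in I1 against M1 became 0 to 6 when an array was left out, and were 0 under the other settings. The call among the other pathway genes in M1, Sox9, became 2 genes with every probe set, 10 after quantile normalization and 12 after cyclic loess, and 0 with eBayes with trend or only the arrays compared, and 0 to 55 with an array left out. In I1 the 0 became 6 after quantile normalization, 8 after cyclic loess and 37 with only the arrays compared, and 0 to 37 with an array left out. In I1 against M1 they became 0 to 51 with an array left out. Among the fits with an array left out, the high counts came without M1 replicate 1 or without M1 replicate 2. Those fits lack the wide M1 spread, and its share in the counts was not tested. With only the I1 and BL185 arrays in the fit, 22.5% of all genes were called higher in I1 and 24.1% lower. The shares of all genes called after cyclic loess and quantile normalization are not given here, so those counts have no background beside them. Among the recomputed changes of single members, 338 kept direction and side of the threshold (for Gxylt2 against BL185, untested, moved by less than the replicate spread), 42 kept direction and passed where they had not, and 34, for 14 of the changes, took the opposite direction, 3 of them with a call. Those 3 were Gxylt1 in M1 (−0.70) and in I1 against M1 (0.81) without M1 replicate 2, and Notch2 in I1 against M1 (−0.58) without M1 replicate 1. Against BL185 in M1, Notch1 was 0.13 after cyclic loess and 0.32 after quantile normalization, Hes1 0.49 and 0.44, Notch2 0.064 and 0.017, and Notch3 −0.015 after cyclic loess. Notch2 there was 0.051 with probe sets averaged and 0.54 on its other probe set. In I1, Notch3 was −0.076 after cyclic loess and −0.098 after quantile normalization. In I1 against M1, Notch2 was −0.091 with probe sets averaged, −0.23 on its other probe set, −0.22 after cyclic loess and −0.14 after quantile normalization, and Jag2 was −0.011, −0.15 and −0.063 under the first 3 of these. With each array left out, the changes in M1 ranged over −0.70 to 1.11 for Gxylt1, −0.37 to 0.31 for Notch1, −1.07 to 0.20 for Notch2, −0.31 to 0.54 for Jag2 and −0.32 to 0.31 for Hes1. In I1, Gxylt1 ranged over −0.054 to 0.29. In I1 against M1 the ranges were −0.74 to 0.12 for Gxylt2, −0.99 to 0.81 for Gxylt1, −0.68 to 0.0014 for Notch1, −0.58 to 0.68 for Notch2, −0.31 to 0.018 for Notch3 and −0.30 to 0.56 for Jag2. The change of Gxylt2 in M1, 3.71 in all arrays, was 4.20 after cyclic loess, 4.14 without M1 replicate 1 and 3.28 without M1 replicate 2. With the replicate number as a block, 0 members other than Gxylt2 were called in either line, and the pathway calls in M1 became 0. The labels do not say if equal replicate numbers pair the arrays. Deviations from the line means correlated at −0.13 between M1 and BL185, 0.16 between I1 and BL185 and 0.37 between I1 and M1. With 2 arrays per line, these values cannot settle it. Signal near the array medians limits what can be read for Notch3, for the second Lfng probe set and for the parental level of Gxylt2.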

Other observations

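Of the bile duct markers listed for comparison, the chloride channel gene Cftr read 6.63 and 8.19 in M1, 9.81 and 9.86 in I1, and 10.56 and 10.47 in BL185, so that all 3 lines were apart. Its change was −3.11 ± 0.51 in M1 (limma, adjusted p = 0.0746) and −0.68 ± 0.51 in I1 (adjusted p = 0.679), and I1 minus M1 was 2.42 ± 0.51 (adjusted p = 0.892). The biliary keratin Krt19 had means of 14.68 in M1, 15.06 in I1 and 14.99 in BL185 and did not pass the test against BL185 (adjusted p = 0.424 and 0.870). Epcam and Krt7, the other bile duct markers measured, were higher, with arrays apart from BL185 in both lines, and did not pass either. Epcam averaged 11.22 in M1, 11.25 in I1 and 10.83 in BL185 (adjusted p = 0.434 and 0.593). Krt7 changed by 0.35 in M1 and 0.18 in I1 from a BL185 mean of 6.81, below the array medians (adjusted p = 0.448 and 0.773). The liver transcription factor Hnf4a averaged 12.35 in M1, 13.17 in I1 and 12.87 in BL185 (adjusted p = 0.442 and 0.739 against BL185).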
